A study of Homo sapiens with 13 samples.

Results

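A divergent promoter pair is formed by 2 protein-coding genes that lie head to head, one on each strand, and start to be transcribed in opposite directions from neighbouring transcription start sites (TSSs). The pairs described here are those of GENCODE release 44 on chromosomes 1 to 22 in which the TSS of the minus-strand gene lies 1 to 1000 bp below that of the plus-strand gene. There were 861 such pairs, formed by 1659 of the 19111 protein-coding genes of these chromosomes. The span of a pair runs from one TSS to the other, both included, and the accessible regions that overlap this span are the subject of the account. The remaining 17452 genes, in no pair, served as single promoters. Accessibility was measured by ATAC-seq, in which the transposase Tn5 cuts and tags open DNA, in H82 and H146, human lines of small cell lung cancer (SCLC), both established and wild type by their labels. H82 is known for high NEUROD1. Cells were left untreated or were grown for 14 days with 100 nM FHD-286, which inhibits SMARCA4 and SMARCA2, the ATPases of the SWI/SNF chromatin remodellers, with 3 untreated and 3 treated H82 libraries and 4 untreated and 3 treated H146 libraries. Each line is represented by 1 atlas of regions (206928 for H82 and 174094 for H146) that merges all of its libraries, treated and untreated together, and gives only chromosome, start and end.

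Head-to-head genes share a short stretch of DNA that has to carry the promoter elements of both. Such stretches are typically rich in G, C and CpG, lack a TATA box, and recruit the transcription machinery on both strands, and single promoters of the same kind often start a short noncoding transcript in the upstream direction. Genes found in this arrangement are known to include many with housekeeping roles, such as DNA repair, mitochondrial function and RNA processing, and the replication-dependent H2A and H2B histone genes.

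The spans printed here show what the pairs look like and how little DNA lies between the starts. All are on the plus strand of hg38, from the minus-strand TSS to the plus-strand TSS, and capitals mark exact matches, on either strand, to 1 of 11 promoter words or to the octamer ATTTGCAT. BRD9 encodes a SWI/SNF subunit and TRIP13 an ATPase of the spindle checkpoint. MRPL47 and NDUFB5 encode a protein of the mitochondrial ribosome and a subunit of respiratory complex I. SLU7 acts in splicing and PTTG1 encodes securin. COL4A4 and COL4A3 encode chains of basement membrane collagen. All 4 of these pairs had a region in both lines.
BRD9-TRIP13, chr5:892801-892884: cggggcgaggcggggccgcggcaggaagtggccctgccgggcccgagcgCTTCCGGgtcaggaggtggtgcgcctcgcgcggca
MRPL47-NDUFB5, chr3:179604649-179604690: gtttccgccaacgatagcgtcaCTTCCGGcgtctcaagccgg
SLU7-PTTG1, chr5:160421711-160421855: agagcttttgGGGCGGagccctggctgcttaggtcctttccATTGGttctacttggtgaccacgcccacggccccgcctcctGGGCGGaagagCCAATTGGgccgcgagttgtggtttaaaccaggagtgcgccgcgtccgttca
COL4A4-COL4A3, chr2:227164453-227164624: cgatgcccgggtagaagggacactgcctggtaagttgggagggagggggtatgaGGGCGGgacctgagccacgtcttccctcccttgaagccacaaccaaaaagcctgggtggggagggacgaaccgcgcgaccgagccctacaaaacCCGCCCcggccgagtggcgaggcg

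The next pair of spans sets a histone pair with a wide region in both lines (H2AC7-H2BC7) beside the testis histone pair H2AC1-H2BC1, which had a region in neither. Both have 3 CCAAT boxes and 1 octamer.
H2AC7-H2BC7, chr6:26199293-26199516: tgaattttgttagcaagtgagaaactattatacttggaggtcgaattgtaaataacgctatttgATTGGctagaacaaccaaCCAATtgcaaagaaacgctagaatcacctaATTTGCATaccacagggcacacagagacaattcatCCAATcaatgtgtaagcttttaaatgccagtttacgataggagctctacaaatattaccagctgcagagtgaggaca
H2AC1-H2BC1, chr6:25726562-25726777: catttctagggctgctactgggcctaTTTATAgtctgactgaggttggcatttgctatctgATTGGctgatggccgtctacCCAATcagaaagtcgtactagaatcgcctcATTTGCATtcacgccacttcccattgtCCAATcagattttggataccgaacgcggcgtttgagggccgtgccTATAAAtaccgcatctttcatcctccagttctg

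The last 4 spans are from pairs that lacked a region in one line or in both. PLCZ1 encodes the sperm phospholipase that activates the egg and CAPZA3 a sperm actin-capping subunit, and WNT3 and WNT9B encode WNT ligands; these pairs had a region in neither line. LANCL1-CPS1, with CPS1 the first enzyme of the urea cycle, had a region in H82 only, and ANGEL1-LRRC74A in H146 only.
PLCZ1-CAPZA3, chr12:18738100-18738119: tgacctcatcaggaggctca
WNT3-WNT9B, chr17:46833154-46833201: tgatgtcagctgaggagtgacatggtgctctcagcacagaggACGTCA
LANCL1-CPS1, chr2:210477652-210477682: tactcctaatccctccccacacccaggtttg
ANGEL1-LRRC74A, chr14:76826246-76826372: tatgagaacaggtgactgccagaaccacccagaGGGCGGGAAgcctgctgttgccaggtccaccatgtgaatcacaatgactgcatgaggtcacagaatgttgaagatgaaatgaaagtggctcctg
The spans of PLCZ1-CAPZA3 and LANCL1-CPS1 hold no CpG, and those of WNT3-WNT9B and ANGEL1-LRRC74A hold 1 each. BRD9-TRIP13 has 13 in 84 bp.

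A few facts about the atlases bear on everything that follows. With 1 atlas per line there is no replicate, so no p-value is given: shares carry exact Clopper-Pearson 95% intervals and differences Newcombe 95% intervals, which cover counting error only. The effect of FHD-286 could not be tested, the depth of the libraries was unknown, and line cannot be told apart from the number and depth of its libraries. The H146 libraries were sequenced in 2 batches by the study's methods, which a merged atlas does not keep apart. Of the labelled subtype markers, NEUROD1 had a region at its TSS in H82 and none in H146, where the nearest lay 2896 bp away. INSM1, SYP and CHGA, neuroendocrine genes, had a region at the TSS in both lines. The atlases also share boundaries to the base. Among the 831 pairs with a region in both lines, the regions of 141 pairs (16.97%) started at the same base in H82 and H146, while the next most frequent difference between starts occurred 9 times. In 229 pairs (27.6%) the start or the end was the same, and in 28 both were, as at BRD9-TRIP13 (chr5:891896-894339 in both). The share with a common start or end was 27.5% at single promoters. How these boundaries arose was not tested, and the results on sharing are given with and without them.

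Nearly every divergent pair was accessible in both SCLC lines. A region overlapped the span of 841 pairs in H82 (97.7%, 96.4 to 98.6) and of 832 in H146 (96.6%, 95.2 to 97.7). The same held for 73.5% and 70.9% of all autosomal protein-coding promoters, read over the 132 bp that end at the TSS, the median length of a pair's span. In both lines together, 831 pairs had a region (96.5%, 95.1 to 97.6), against 68.7% of all promoters. A region was found at 10 pairs in H82 only (1.16%, against 4.8% of all promoters), at 1 pair in H146 only (0.116%, against 2.21%) and at 19 pairs in neither line (2.21%, 1.33 to 3.42, against 24.3%).

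Single promoters had a region in both lines at 11532 of 17452 genes (66.1%, 65.4 to 66.8), which is 30.4 percentage points below the pairs (28.8 to 31.7). The gap was 26.5 points in H82 (25.1 to 27.5) and 28.2 points in H146 (26.6 to 29.4). Pairs were higher on 22 of 22 autosomes, with 90.5% to 100% of pairs and 54.8% to 81.5% of single promoters per chromosome. The promoters most like the pairs are the 1555 single promoters that have a divergent gene of another biotype within 1000 bp upstream. Of these, 90.0% had a region in both lines (88.4 to 91.4), 6.55 points below the pairs (4.54 to 8.45). Of the 15897 genes with no divergent gene at all, 63.7% did (63.0 to 64.5), 32.8 points below (31.1 to 34.1). Without the promoters that share a boundary between the lines, 602 of 632 pairs (95.3%) and 8363 of 14283 single promoters (58.6%) had a region in both, 36.7 points apart. Only promoters with a region in both lines can share a boundary, so this step lowers both shares by construction. The wider gap is no separate check of the lead.

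**Figure D1:**
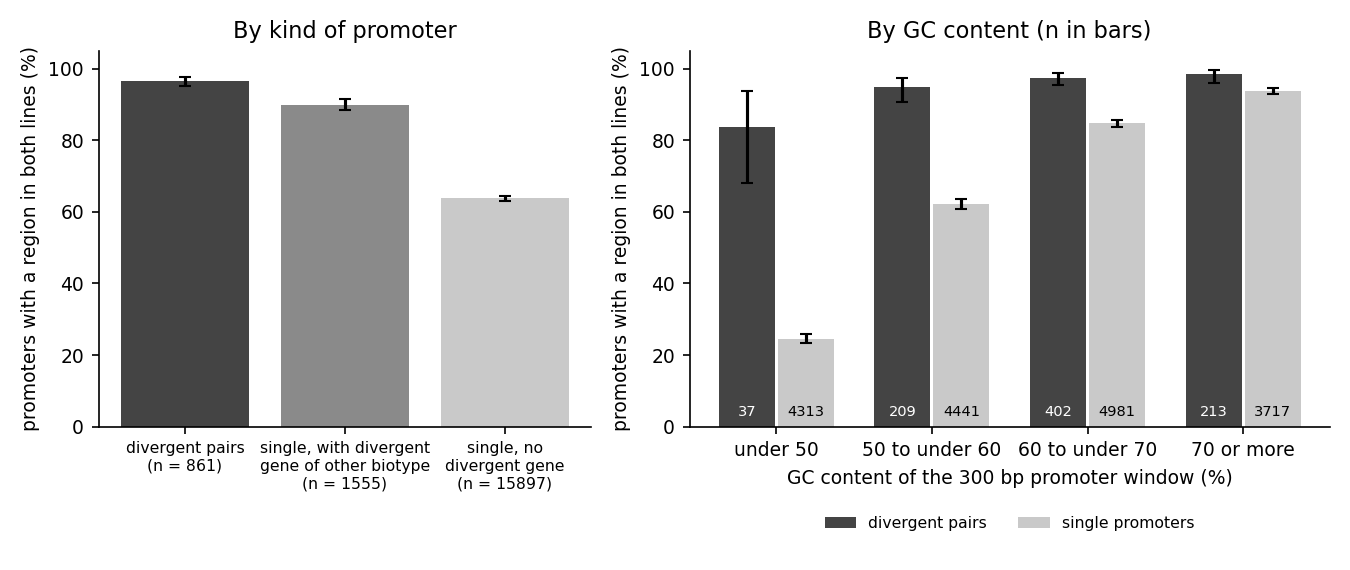
Share of promoters with a region in both lines (vertical axis, percent; bars with exact 95% intervals) for divergent pairs, single promoters with a divergent gene of another biotype and single promoters with none, and the same for pairs and all single promoters by GC content of the 300 bp window around the TSS. Pairs reach 96.5% against 90.0% and 63.7%, and their lead over single promoters shrinks from 59.2 points under 50% GC to 4.86 points at 70% or more.

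GC content moved with this difference. The window from 250 bp before to 50 bp after the TSS had a median GC content of 64.5% at pairs (the mean of both windows of a pair) and 59.7% at single promoters. Under 50% GC, 31 of 37 pairs (83.8%, 68.0 to 93.8) and 24.6% of 4313 single promoters had a region in both lines. From 50% to under 60% the shares were 94.7% and 62.2%, and from 60% to under 70% they were 97.5% and 84.8%. At 70% or more, 210 of 213 pairs (98.6%) and 93.7% of single promoters had one, and the difference of 4.86 points (2.11 to 6.10) was the smallest of the 4 classes. The share of single promoters thus varied more with GC content than that of pairs.

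The usual form was 1 region that covered both starts. It was found at 828 pairs in H82 (96.2%, 94.7 to 97.3) and 822 in H146 (95.5%, 93.9 to 96.8). Only the plus-strand TSS was covered at 10 pairs in H82 and 8 in H146, and only the minus-strand TSS at 3 and 2. No span in either line held 2 regions. The authors merged regions that lay within 500 bp of each other and the smallest gap left was 501 bp, so separate regions over both starts could be seen only at pairs with starts more than 500 bp apart. Among the 109 pairs 401 to 1000 bp apart, 1 region covered both starts at 87.2% in H82 and 88.1% in H146.

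Regions at pairs ran into both genes, with a median reach slightly longer into the minus-strand gene. In H82 the median reach past the TSS was 774.5 bp into the plus-strand gene (order-statistic 95% interval 738 to 802) and 826 bp into the minus-strand gene (782 to 863). In H146 it was 773 bp (735 to 808) and 789.5 bp (755 to 829). Within a pair the reach into the plus-strand gene less that into the minus-strand gene had a median of -78 bp in H82 (-127 to -33) and -45.5 bp in H146 (-94 to -3). The reach was longer into the plus-strand gene at 44.8% of pairs in H82 (41.4 to 48.3) and 46.2% in H146 (42.8 to 49.7). In each line 58 regions served 2 or more pairs, which these intervals do not allow for. At single promoters, where one side has the gene and the other may have none, the regions reached 1058 bp into the gene and 672 bp upstream in H82, and 1030 and 644 bp in H146, with the longer side in the gene at 68.6% and 70.4%. Single promoters with a divergent gene of another biotype had 1024 bp into the gene and 868 bp upstream in H82, 1004.5 and 831.5 bp in H146, and the longer side in the gene at 61.3% and 62.6%. The sides of a pair are named by strand and both lie in a gene, so these medians do not say how even a single region is. Read as the longer and the shorter side, the medians at pairs were 1057.5 bp (1026 to 1113) and 607.5 bp (577 to 628) in H82 and 1015 and 596 bp in H146. At single promoters they were 1233 bp (1219 to 1250) and 581 bp (572 to 589) in H82 and 1178 and 567 bp in H146, so regions at pairs were uneven too.

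**Figure D2:**
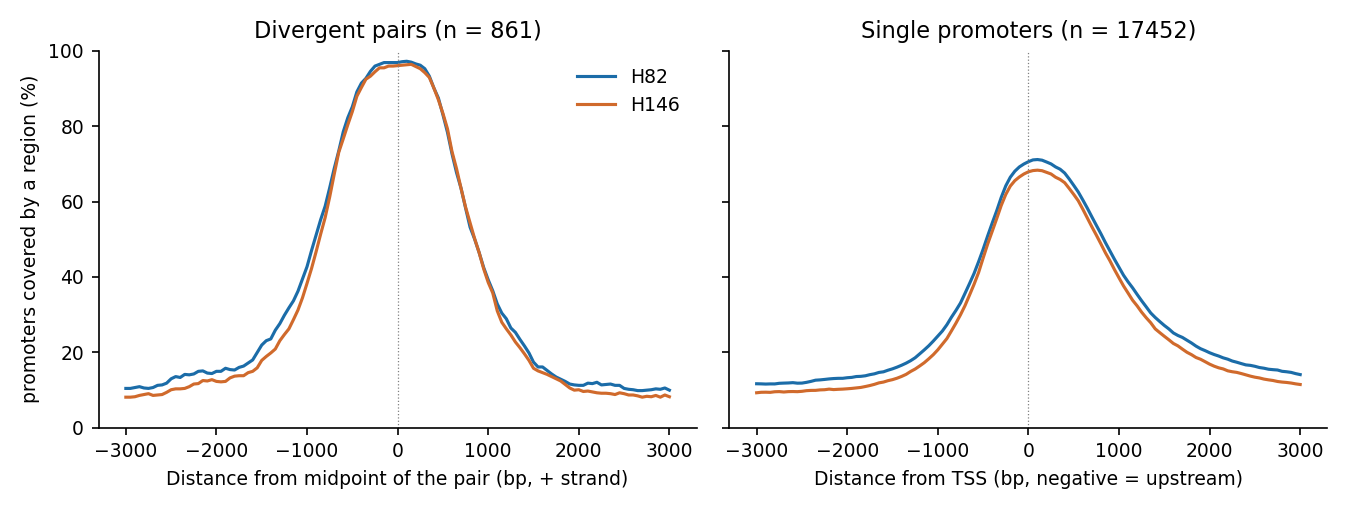
Share of promoters covered by a region (vertical axis, percent) at each 50 bp step from 3000 bp before to 3000 bp after the midpoint of 861 pairs (left) or the TSS of 17452 single promoters (right), for H82 and H146. At 500 bp to either side, coverage of pairs in H82 is 85.1% and 83.0%, with a gene on both sides, and that of single promoters is 47.3% upstream and 64.3% downstream, in the gene.

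The centre of the region lay to either side of the midpoint of the pair, with a small median offset. Its median offset was -36 bp in H82 (quartiles -221 and 189) and -20.5 bp in H146 (-192 and 183.25), where negative means toward the minus-strand gene. The order-statistic 95% interval of this median was -61 to -11 bp in H82. In H146 it was -43 to 1 bp, which reaches both sides of the midpoint. At single promoters the centre lay 150 bp (H82) and 153 bp (H146) inside the gene. The sides of a pair are named by strand, so offsets of opposite sign cancel in the median. Within 200 bp of the midpoint lay 48.3% of the centres at pairs in H82 and 53.2% in H146. At single promoters 40.5% and 42.1% lay within 200 bp of the TSS. Without regard to side, the median distance was 210 bp (H82) and 188 bp (H146) at pairs. It was 268 and 249 bp at single promoters.

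Pairs with more distant starts had wider regions. The starts lay 131 bp apart at the median (quartiles 69 and 248, range 1 to 995). In H82 the median width was 1618 bp at pairs 1 to 50 bp apart, 1678 at 51 to 100, 1778.5 at 101 to 200, 2245 at 201 to 400 and 2476.5 bp at 401 to 1000 bp. In H146 the widths were 1548, 1605.5, 1794.5, 2051 and 2383 bp. The part of the region outside the span changed less, but was also longer at distant starts. In H82 it was 1590 bp in the closest class (1430 to 1702), 1952 bp at 201 to 400 bp (1787 to 2112) and 1864 bp in the most distant class (1636 to 2230). In H146 it was 1526 bp (1393 to 1651), 1791 bp (1658 to 1955) and 1791 bp (1566 to 2082). In both lines the interval at 201 to 400 bp lay above that of the closest class, and that of the most distant class overlapped it. The share of pairs with a region was 96.5% to 98.4% in the 5 classes in H82 and 94.5% to 97.7% in H146, all with overlapping intervals.

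**Figure D3:**
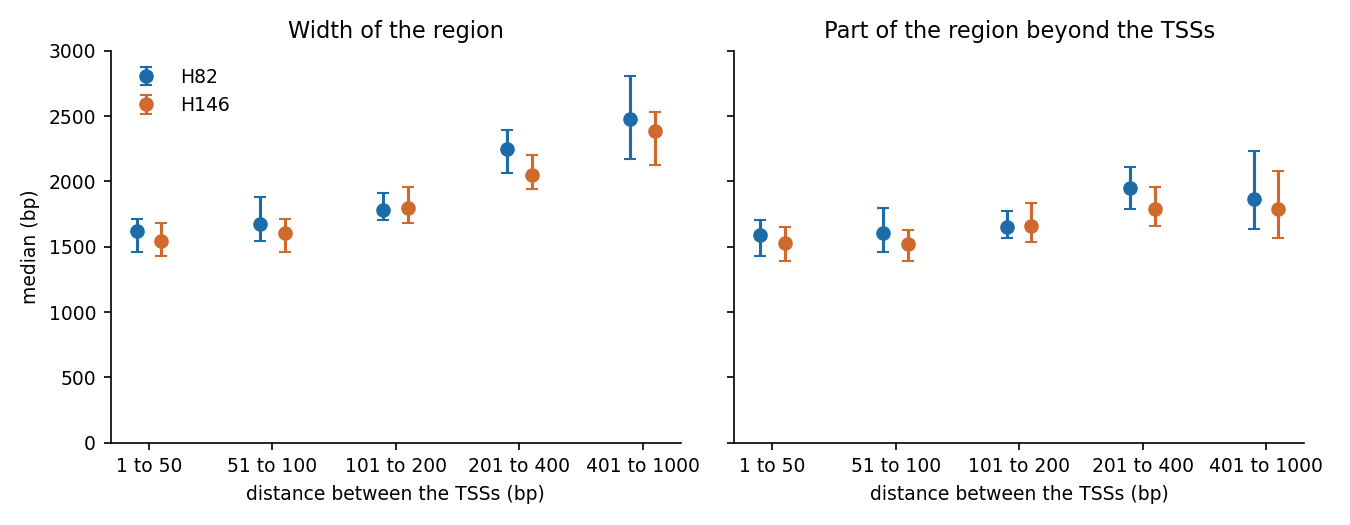
Median width of the region at a pair (left) and median length of the part beyond both TSSs (right), in bp, by distance between the TSSs, for H82 and H146, with order-statistic 95% intervals. Widths go from 1618 to 2476.5 bp in H82 and from 1548 to 2383 bp in H146, while the part beyond the TSSs goes from 1590 bp in the closest class to 1952 bp at 201 to 400 bp and 1864 bp in the most distant class in H82, and from 1526 to 1791 and 1791 bp in H146.

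Regions at pairs were about as wide as those at single promoters. Counting each region once, the median width was 1883.5 bp for 780 H82 regions at pairs and 1840 bp for 11402 at single promoters, a difference of 43.5 bp (-42.7 to 109). In H146 it was 1815 bp for 771 regions and 1758 bp for 10976, a difference of 57 bp (-12.0 to 154). Both intervals hold 0, but just exclude it in H82 with canonical starts (62 bp, 1.58 to 131) and in H146 against genes with no divergent gene (73 bp, 3.43 to 171). The median of all autosomal regions was 483 bp in H82 and 500 bp in H146. In each line 58 regions served 2 or more pairs. The remaining medians are per promoter, so a region can count more than once, and regions that also serve a pair are kept. They were 1971 bp (1914 to 2032) in H82 and 1901 bp (1829 to 1972) in H146 at single promoters with a divergent gene of another biotype. At single promoters with no divergent gene they were 1845 and 1761 bp.

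In sequence the regions at pairs differed slightly from those at single promoters. Their median GC content was 58.8% in H82 and 58.7% in H146, against 59.9% and 60.1%, a difference of -1.15 points (-1.67 to -0.633) and -1.40 points (-1.91 to -0.775). The 300 bp windows had the higher GC content at pairs, but over all promoters, with or without a region. Among promoters with a region in both lines the window medians were close. They were 64.7% at pairs (64.3 to 65.3) and 64.3% at single promoters (64.3 to 64.7). The ratio of observed to expected CpG was higher at pairs, 0.717 against 0.681 in H82 (difference 0.0359, 0.0220 to 0.0458) and 0.718 against 0.690 in H146 (0.0281, 0.0171 to 0.0362).

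Sharing between the lines was close to complete. Of the H82 regions at pairs, 772 of 780 overlapped an H146 region (99.0%, 98.0 to 99.6), against 95.7% at single promoters, 3.29 points lower (2.24 to 3.93). Of the H146 regions at pairs, 770 of 771 overlapped an H82 region (99.9%, 99.3 to 100.0), against 98.4%, 1.52 points lower (0.878 to 1.80). Over all autosomal regions 59.6% of H82 and 70.6% of H146 regions were shared. Without regions that had a boundary in common the differences were 4.48 points (3.05 to 5.35) and 2.10 points (1.21 to 2.49). The regions left out are all shared, so this step lowers both shares by construction and is no separate check. No difference in sharing was found from single promoters with a divergent gene of another biotype. Counted per pair or per promoter with a region, it was 99.0% at pairs and 98.6% at these promoters in H82, a difference of 0.443 points (-0.594 to 1.33), and 99.9% and 99.6% in H146, a difference of 0.235 points (-0.358 to 0.719).

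The width at a pair was similar in both lines. Of 831 pairs, the H146 region was wider at 438, the H82 region at 364, and the widths were equal at 29. The median log2 ratio of H82 to H146 width was -0.01 (quartiles -0.13 and 0.15), and Spearman's rho of the widths across pairs was 0.804, a description over pairs that share sequence and sites with each other. Over the 602 pairs with no boundary in common rho was 0.776. At single promoters the median log2 ratio was also -0.01.

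**Figure D4:**
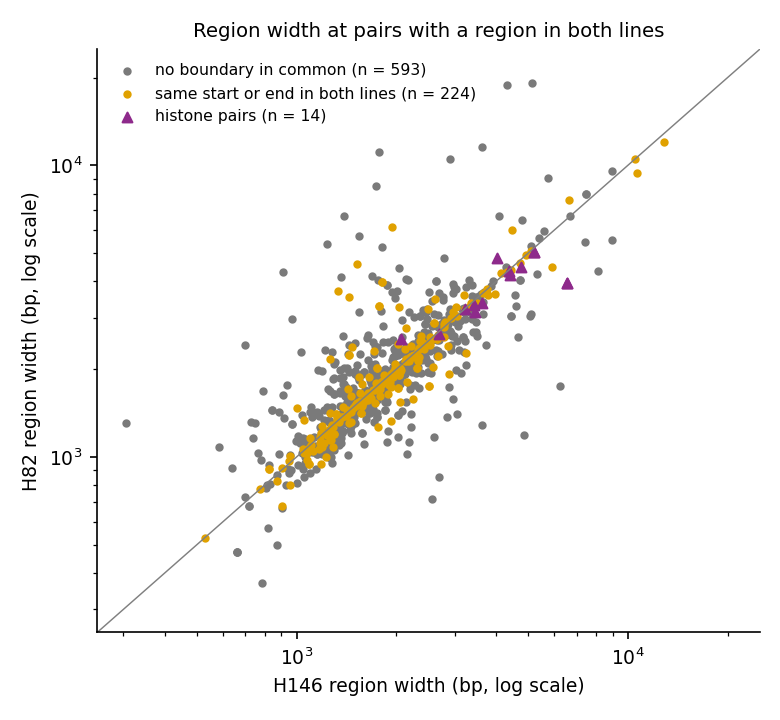
Width of the region in H82 (vertical) against H146 (horizontal), in bp on log axes, for the 831 pairs with a region in both lines, with pairs that share a start or end between lines in yellow and histone pairs as triangles; the line marks equal width. Most pairs lie along the line, the histone pairs lie from 2064 to 6551 bp, and the points far above the line are H82 regions of several kb.

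The largest width ratios among pairs were found in both directions. INTS11-CPTP, with INTS11 the RNA-cleaving subunit of Integrator, had a region of 11149 bp in H82 and 1769 bp in H146. At PCSK4-REEP6, with REEP6 a membrane protein of rod photoreceptors, the widths were 8505 and 1734 bp. They were 6694 and 1388 bp at EXOC5-AP5M1, with EXOC5 a subunit of the exocyst, and 4311 and 908 bp at STOML1-PML, with PML the organiser of PML nuclear bodies. OSTM1-NR2E1, with NR2E1 the nuclear receptor TLX of neural stem cells, had 5392 and 1231 bp. In these 5 pairs the H82 region was over 4 times as wide. The H146 region was the wider at LGI4-FXYD7 (1190 bp in H82 and 4871 bp in H146), where FXYD7 is a brain regulator of the sodium pump, and at the securin pair SLU7-PTTG1 (716 and 2561 bp). At ILDR2-MAEL, with MAEL a germline piRNA factor, the widths were 1754 and 6256 bp. FKBP3-FANCM, with FANCM a Fanconi anaemia helicase, had 854 and 2694 bp, and TLCD3B-ENSG00000285043 had 1286 and 3634 bp. These pairs were picked for their ratio, so the ratios are descriptions.

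The widest regions held far more than a promoter. In H82 they were at SRMS-FNDC11 (21063 bp), RECQL4-LRRC14 (19092 bp), RHOF-SETD1B (18791 bp), XRCC3-ZFYVE21 (12012 bp) and HES4-ISG15 (11544 bp). The H146 regions at RECQL4-LRRC14, RHOF-SETD1B and HES4-ISG15 were 5134, 4313 and 3628 bp wide, and SRMS-FNDC11 had none. RECQL4 is a helicase of DNA replication and SETD1B a histone H3 lysine 4 methyltransferase. In H146 the widest were at XRCC3-ZFYVE21 (12839 bp), where XRCC3 acts in homologous recombination, STX10-IER2 (10673 bp), where IER2 is an immediate early gene, POLR2L-TSPAN4 (10493 bp, with the same boundaries in H82), RGS19-OPRL1 (8961 bp), with OPRL1 the nociceptin receptor, and HRAS-LRRC56 (8954 bp). Regions of at least 10 kb covered 8 pairs in H82 and 3 in H146, and regions under 500 bp covered 7 and 2.

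Pairs grouped by the roles of their genes had regions almost without exception. The groups were drawn from gene symbols, their counts are read beside the 96.5% of all pairs, and no group is called particular. All 61 mitochondrial, 64 RNA processing, 36 ubiquitin and proteasome, 31 zinc finger and 22 translation pairs had a region in both lines. Of 55 pairs with a gene of DNA replication or repair, 53 did. Single promoters of these lists had a region in both lines at 87.3% (mitochondrial), 82.2% (RNA processing) and 76.6% (ubiquitin and proteasome). The share was 84.4% for zinc finger, 88.3% for translation and 86.1% for DNA replication and repair. Median widths at the mitochondrial pairs were 1415 bp (H82) and 1458 bp (H146), and at the zinc finger pairs 1403 and 1510 bp, below the medians of all pairs. Among the mitochondrial pairs the narrowest regions were at COX16-ADAM21 (473 and 659 bp), with COX16 an assembly factor of cytochrome oxidase, and at ATP5MJ-TDRD9 (529 bp in both, covering the plus-strand TSS only). The widest H82 region of that group was at MICOS13-HSD11B1L (4457 bp, and 2034 bp in H146), with MICOS13 a shaper of the cristae.

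In the other housekeeping groups widths spread in the same way. For translation, regions ran from RPL18-SPHK2 (1159 bp in H82 and 1225 bp in H146), which holds a ribosomal protein gene, to ALG3-EEF1AKMT4 (2872 and 2592 bp), with EEF1AKMT4 a methyltransferase of an elongation factor. For RNA processing the narrowest H82 region was at XPC-LSM3 (935 and 1013 bp), with LSM3 a subunit of the LSM ring. For ubiquitin and the proteasome it was at FBXL12-UBL5 (912 and 1044 bp), with UBL5 a ubiquitin-like protein of splicing, and RNF41-NABP2 was among the wide ones (4285 and 4288 bp). Among zinc finger pairs it was at ZNF721-PIGG (912 and 1141 bp). In replication and repair, SMC1B-RIBC2 (667 and 904 bp) was the narrowest, SMC1B being the meiotic cohesin subunit, ALKBH1-SLIRP (800 and 928 bp) was next, and XRCC3-ZFYVE21 and RECQL4-LRRC14 were the widest.

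Pairs with genes known for restricted expression mostly had regions too. All 15 pairs with a neuronal or neuroendocrine gene had a region in both lines, against 206 of 351 single promoters of the same list (58.7%). Median widths of these pairs were 2377 bp (H82) and 2141 bp (H146). GABRA4-GABRB1, the subunits of the GABA-A receptor, had regions of 998 and 1223 bp. GLRA3-ADAM29, with GLRA3 a glycine receptor subunit, had 999 and 1273 bp. The widest were PCSK4-REEP6 and STX10-IER2 (9421 bp in H82), which entered the list by symbol: PCSK4 is a protease of sperm and STX10 a syntaxin of the Golgi. Of the 7 pairs with a tissue-restricted gene 6 had a region in both lines, against 127 of 927 single promoters of that list (13.7%). They included TRIM5-OR56A3 (677 and 905 bp), which joins an antiviral gene to an olfactory receptor, CYP39A1-SLC25A27 (969 and 946 bp) and CLDN1-CLDN16 (5087 and 5091 bp), a pair of claudins of tight junctions. OR11A1-OR2H1, in which both genes are olfactory receptors, had none. In all groups a pair entered a list if either gene matched, while each single promoter is that of a listed gene. The shares of pairs and of single promoters are thus not of like units.

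Histone pairs had the highest median width of the 10 groups. Of 15 pairs with a histone gene, 14 had a region in both lines, and the median widths were 3957 bp (H82) and 4197 bp (H146). Counting each region once, the 12 regions were 2533 to 5034 bp wide in H82 and 2064 to 6551 bp in H146. Single histone promoters had medians of 3118 and 3423 bp. These are per promoter, so a region can count more than once, and regions that also serve a pair are kept. At H2AC7-H2BC7 (chr6:26199293-26199516, span shown earlier) the regions were 5034 and 5201 bp wide, at H2BC8-H2AC8 4810 and 4020 bp, and at H2BC21-H2AC20 on chromosome 1 4472 and 4772 bp. The narrowest were at H2BC13-H2AC13 (2533 and 2064 bp) and H2AC25-H2BC26 (2630 and 2687 bp). H2AC1-H2BC1, which encodes the H2A and H2B variants of the testis, had no region, and the nearest lay 5793 bp away in H82 and 5786 bp in H146. Histone genes are near-identical copies, and how reads that fit several copies were placed is not given in the sources used here.

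These spans are poor in G and C. The 14 distinct histone spans had 34.3% to 49.4% GC, against a median of 66.1% over all pairs, and 13 of the 14 had starts 170 to 319 bp apart. All 14 held at least 3 CCAAT boxes, 11 held the octamer ATTTGCAT, a site known in H2B promoters, 10 a TATAAA word and 2 a GC box. Among the 28 genes of these pairs 75% had the octamer in the 300 bp window, against 10.7% of 56 single histone genes, 0.552% of the other paired genes and 1.68% of all genes. The windows of paired genes overlap, so the same octamer can count for both genes of a pair. The single histone genes are all other genes of the histone list, not H2B genes alone. The octamer was added after the histone spans had been read. Among regions of low GC content, histone pairs had the highest median width of the groups set side by side: under 50% GC, 8 H82 regions of histone pairs had a median width of 3786 bp (3145 to 5034), 28 of other pairs 2316.5 bp (1854 to 3168) and 741 at single promoters 1389 bp (1295 to 1511), so the intervals of histone and other pairs overlapped. In H146 the medians were 4197 bp for 10 regions (3429 to 5201), 2021 bp for 29 (1569 to 2561) and 1422.5 bp for 734 (1325 to 1541).

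Well-known pairs followed the general form, each with 1 region over both starts in both lines. NPAT-ATM joins the activator of histone genes to the kinase of the DNA damage response, with starts 406 bp apart and regions of 2139 bp in H82 and 2187 bp in H146 that ended at the same base. PRKDC-MCM4 joins the DNA-dependent protein kinase to a subunit of the replicative helicase, 7 bp apart, with 2102 and 2200 bp that reached 464 and 467 bp into PRKDC and 1630 and 1725 bp into MCM4. COL4A4-COL4A3 had 1848 and 2057 bp. PDCD10-SERPINI1, with SERPINI1 the neuronal serpin neuroserpin, had 2891 and 2799 bp.

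There were 2 pairs with a SWI/SNF gene. BRD9-TRIP13 had the same 2444 bp region in both lines, reaching 905 bp into BRD9 and 1455 bp into TRIP13. PSMA7-SS18L1, which joins a proteasome subunit to the subunit of the neuronal SWI/SNF complex also called CREST, had 2970 bp in H82 and 3394 bp in H146. SMARCA4 and SMARCA2, the targets of FHD-286, are in no pair.

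The 10 pairs with a region in H82 only ranged widely in width, and most have a gene whose canonical start lies more than 1 kb away. SRMS-FNDC11 lay in the 21063 bp region (chr20:63529232-63550294), and the nearest H146 region was 201 bp from its span. SEPTIN10-SOWAHC, with SEPTIN10 a cytoskeletal GTPase, had 2878 bp in H82, a span with 76.1% GC, and its nearest H146 region lay 67735 bp away. LANCL1-CPS1 (2035 bp) had an H146 region 606 bp away, and the canonical start of CPS1 lies 78917 bp from the start used here. TPRX1-CRX (1448 bp), with CRX the photoreceptor homeobox factor, LCP1-LRRC63 (1247 bp), with LCP1 the plastin of leukocytes, and ZDHHC19-SLC51A (1018 bp), with SLC51A a bile acid transporter subunit, had H146 regions 2049, 3693 and 1706 bp away. The narrow ones were ALS2CL-TMIE (870 bp), GSG1L2-GLP2R (471 bp), PRAC1-PRAC2 (337 bp) and ARRDC5-UHRF1 (258 bp), the last at an upstream start of the DNA methylation factor UHRF1. An H146 region lay at the canonical start of LCP1 (29694 bp away), TMIE (6864 bp), UHRF1 (6421 bp) and FNDC11 (6268 bp). TPRX1 (14500 bp), CRX (2158 bp) and LANCL1 (893 bp) also had one at theirs. SLC51A (5047 bp) and GLP2R (3718 bp) had none there, nor had CPS1. SEPTIN10-SOWAHC and PRAC1-PRAC2 have canonical starts at most 177 bp away, without an H146 region. The only pair in H146 alone, ANGEL1-LRRC74A, had 382 bp. None of these has a replicate check.

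No region lay over 19 pairs in either line. In order of distance the first 12 were PLCZ1-CAPZA3, PRSS54-GINS3, DCST2-DCST1, LYPD4-DMRTC2, WNT3-WNT9B, RASL12-KBTBD13, TRIM50-FKBP6, OR11A1-OR2H1, BST2-MVB12A, RAD51D-FNDC8, MORC1-C3orf85 and ENSG00000267618-FNDC8, with starts 19 to 122 bp apart. DCST1 and DCST2 act in sperm-egg fusion, FKBP6 and MORC1 in male germ cells, and BST2 encodes tetherin, which holds viruses at the cell surface. At 11 of the 19 the canonical transcript of at least 1 gene starts more than 1 kb from the start used here, and at 9 a region lay on such a canonical start. GINS3, a subunit of the replicative helicase, has its canonical start 97391 bp away with a region in both lines, and RAD51D 1662 bp away with a region in both lines. The starts of WNT3 and WNT9B lie 14462 and 18382 bp away, and both had a region in both lines there. H2AC1-H2BC1, PLCZ1-CAPZA3, OR11A1-OR2H1 and DCST2-DCST1 have canonical starts at most 88 bp from those used here, and had no region there. The nearest region to these 19 spans lay at a median of 1159 bp in H82 (157 to 33275) and 2596 bp in H146 (71 to 55253). The median GC content of their windows was 54.3%, against 64.7% at pairs with a region in both lines.

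At 18 pairs the region covered only 1 of the starts in at least one line, and 15 of these had starts at least 350 bp apart. EHHADH-MAP3K13 was covered at the MAP3K13 start in both lines (941 and 823 bp), and RAD51C, a recombination gene, at its own start and not at those of TEX14 and IGBP1C (911 and 826 bp). Some differed between the lines. FKBP3-FANCM had only the FANCM start covered in H82 and both in H146, as had BTG4-HOATZ with HOATZ (500 and 875 bp). NOL9-TAS1R1 had both covered in H82 (1765 bp) and only NOL9, a factor of ribosome formation, in H146 (936 bp), leaving out the taste receptor TAS1R1. PRRT1-PPT2 had both covered in H82 (3981 bp) and only PPT2, a lysosomal thioesterase, in H146 (1805 bp).

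The sequence at the starts set paired genes apart from single genes. The 300 bp window of each gene was searched on both strands for 11 words, and the windows of paired genes overlap each other, so the intervals are too narrow. The GC box of SP and KLF factors, GGGCGG, was in 72.2% of the windows of paired genes, 50.8% of single and 52.6% of all genes. The ETS word CCGGAAG was in 27.6%, 10.5% and 11.9%, and the CRE word TGACGT of CREB and ATF in 14.7%, 8.21% and 8.77%. The CCAAT word of NF-Y was in 40.7%, 35.1% and 35.6%, but in windows from 500 bp before to 100 bp after the TSS in 54.1% of paired and 53.1% of single genes, a difference whose interval holds 0 (0.992 points, -1.52 to 3.49). Rarer words were also more frequent at paired genes: NRF1 (GCGCATGCG) in 6.57% against 1.96% of single and 2.36% of all genes, YY1 (AAGATGGC) in 6.45% against 2.72% and 3.04%, and ZNF143 (ACTACAA) in 6.09% against 2.84% and 3.12%. E2F (TTCCCGCC) was in 6.51% against 3.52% and 3.78%, and the TCTCGCGA element in 4.16% against 1.19% and 1.45%. The GC box and E2F words can overlap. The TATA word TATAAA was in 4.94% of paired, 11.5% of single and 10.9% of all windows, and the NEUROD1 E-box CAGATG in 7.90%, 13.6% and 13.1%.

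Base composition moved with some of these words and not with others. Read backwards, the GC box word was still 18.9 points more frequent at paired genes, against 21.4 points forwards, and the TATA word differed by -7.46 points, against -6.51 forwards. The ETS word had a difference of 17.1 points forwards (15.0 to 19.3) and 0.751 points backwards (-0.373 to 2.06), and NRF1 4.61 and 0.210 points. A reversed word has the same bases, and the GC box and TATA words also keep their number of CpG. The ETS word loses its CpG when reversed, and the NRF1 word gains CpG. Among genes with a region in both lines the GC box was in 73.6% of paired and 67.1% of single windows (difference 6.49 points, 4.12 to 8.76), the ETS word in 28.4% and 14.7% (13.7 points, 11.4 to 16.0), and the NEUROD1 E-box in 7.56% and 10.8% (-3.23 points, -4.56 to -1.73).

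**Figure D5:**
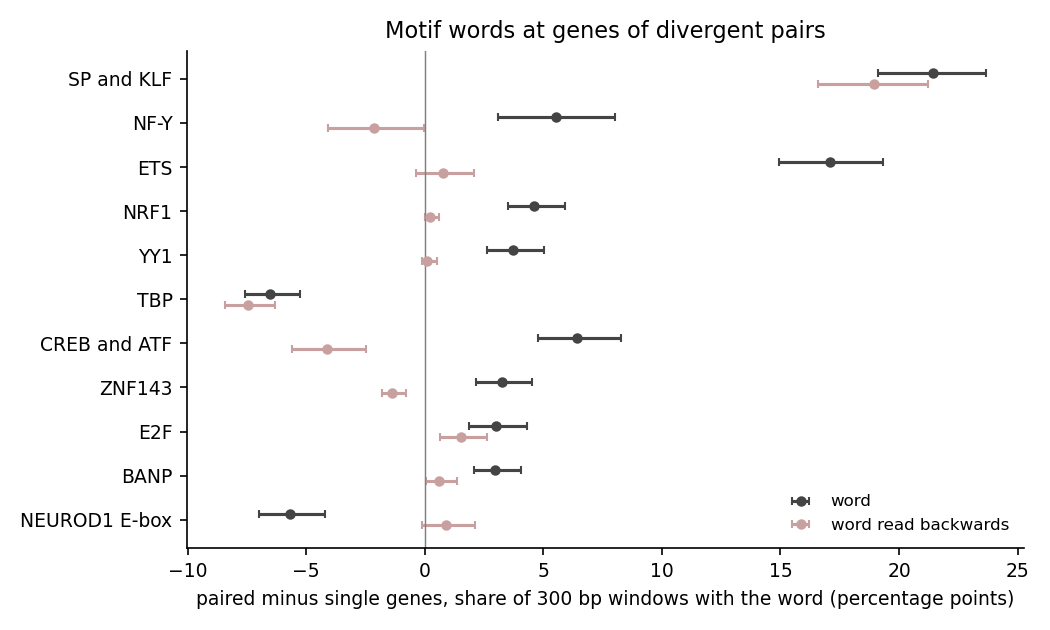
Difference between paired and single genes in the share of 300 bp promoter windows that hold a promoter word (horizontal axis, percentage points, with Newcombe 95% intervals), for each word and for the word read backwards, labelled by the factors known to bind it (TBP stands for the TATA word and BANP for the TCTCGCGA element). Of the 11 words 9 lie above 0, the TATA and NEUROD1 words lie below, and the intervals of the GC box, NRF1, E2F, TCTCGCGA and TATA words stay on the same side of 0 when read backwards.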

How the data were processed

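ATAC-seq libraries of H82 and H146 cells, untreated or treated with FHD-286, were made from cryopreserved cells. The authors trimmed reads with Trim Galore 0.4.4, aligned them to hg38 with bowtie2 2.3.4, removed reads of identical start and orientation with Picard, called regions per sample with MACS2, removed blacklisted regions and merged the regions of a line within 500 bp. The deposited files hold the chromosome, start and end of these regions, with no score or count, and 0 per-sample columns were set aside. Whether cut sites were shifted for Tn5 is not given in the sources used here. A region is listed if any library of the line had it. More or deeper libraries therefore give more regions, and a merged width is not that of a single site.

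TSSs are the 5′ ends of GENCODE 44 genes. Pairs, spans and regions were found in Python 3.11.15 with numpy 2.4.6, pandas 2.3.3, pysam 0.24.0 and scipy 1.17.1, and differed from bedtools 2.31.1 at 0 of 861 pairs. The functions were tested on simulated data. All regions ended within their chromosome (0 past the end). A span had a region at 1 bp of overlap, and regions were shared between lines at 1 bp. A single promoter was read over 132 bp upstream from its TSS. Where each region was counted once (width, GC content, CpG and sharing), regions that also served a pair were left out of the single group. Values per promoter kept them, among these presence, reach, centre and coverage. Of the pairs, 79 hold a readthrough gene and 62 genes are in 2 or more pairs. Intervals of median differences combine the 2 order-statistic intervals.

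The pairs, gene lists, words and alternatives were chosen with earlier results of these data known. The octamer word and the values without common boundaries were added after the data were seen. Pairs were named by a rule: well-known pairs and those with a SWI/SNF gene, pairs with a region in 1 line only (up to 12 per line), up to 12 with none by distance, the 5 widest per line, the 5 largest width ratios per direction, and the widest and narrowest in each of 10 lists. Pairs with 1 covered start, further pairs without a region, and printed spans beyond these were chosen after their values were seen. HSPD1-HSPE1, COL4A1-COL4A2, PSMB9-TAP1 and SURF1-SURF2 were on the list of well-known pairs and did not meet the distance rule at the gene starts used. Some planned items are not reported here. Alternatives were another start, distance limit, overlap, region width, single window, set of single promoters, GC class and word window.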

Additional observations from a re-analysis of the deposited data

Results flagged for a closer look

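Divergent pairs of chromosome X lie outside the comparisons, which used chromosomes 1 to 22. They are given because no comparison used them. Of the 26 pairs of chromosome X, 26 had a region over the span in H82 and 25 in H146. Of the 808 single promoters of that chromosome, read over 132 bp, 60.9% had a region in H82 and 54.2% in H146, and of all 859 promoters 63.2% and 56.7%.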

How the results depend on the processing

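No paired analysis was possible because the replicate numbers of the labels belong to libraries that were merged into 1 atlas per line, and leaving out a replicate was not possible for the same reason. Pairs exceeded single promoters in presence and in sharing under every alternative run, and the width differences stayed within the intervals first given except in classes of GC content, although in 2 settings the new interval excluded 0 (H82 with canonical starts, 62 bp, and H146 against genes with no divergent gene, 73 bp). With canonical starts the share of pairs with a region in both lines was 98.4%; the distance limit, overlap, width limit and chromosomes left it within its interval. The lead of pairs in presence in H82 and H146 was 23.5 and 25.6 points with a single window of 1000 bp, 19.0 and 21.1 points with 1 kb to either side of each TSS, 28.5 and 30.3 points against genes with no divergent gene, and 32.0 and 33.9 points without common boundaries. Within GC classes it was 59.1 and 55.5 points under 50%, 29.6 points in H146 from 50% to under 60%, 8.75 and 11.3 points from 60% to under 70%, and 3.16 and 3.81 points at 70% or more. For widths the classes are by GC content of the whole region, not of the 300 bp window. Regions at pairs were wider by 1675.5 and 930.5 bp under 50% GC. There 8 of 36 H82 regions and 10 of 39 H146 regions were of histone pairs. The difference was 179 and -211.5 bp at 70% or more, with 14 and 20 regions. The lead in sharing was 8.68 and 5.93 points at 50% overlap of both regions, 4.10 points in H82 for regions of 500 bp or more, and 4.48 and 2.10 points without common boundaries. Leaving out common boundaries removes only promoters with a region in both lines, or only shared regions. The values without common boundaries are thus no separate check. With regions of 500 bp or more, 4 pairs had a region in H146 only (ENSG00000285868-NIPAL4 and 3 pairs of ADAM21, named after their values were seen). Read backwards, 4 words were more and 4 less frequent at paired genes, and the CCAAT, CRE, ZNF143 and NEUROD1 words changed sign, to -2.13, -4.12, -1.40 and 0.895 points. The other words that left their intervals backwards were the GC box (18.9), ETS (0.751), NRF1 (0.210), YY1 (0.0809), E2F (1.52) and TCTCGCGA (0.605 points). With windows from 500 bp before to 100 bp after the TSS, the differences left their intervals for the GC box (26.3), ETS (20.6), YY1 (5.16), E2F (4.57), TATA (-13.3) and NEUROD1 (-9.06 points) in the same direction, and for CCAAT (0.992 points), whose interval then held 0. The other values stayed within their intervals or, for counts, within 1.5 times. Beyond these constructions the cause of the shifts was not tested, and the unknown depth limits what an absent region means.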

Other observations

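Boundaries that agree to the base between the atlases were not limited to pairs. Over all autosomes 35297 regions started at the same base in both lines, which is 17.5% of the H82 and 20.8% of the H146 regions, and 18929 had the same start and end (9.41% and 11.1%). At pairs the starts agreed exactly in 16.97%, while differences of 1 to 10 bp made up 0.259% per bp and side. What produced these boundaries was not tested.

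Windows of 10 kb to either side of pairs and of single promoters held similar numbers of regions. Within 10 kb to either side of the midpoint of a pair there were 2.88 regions on average in H82 and 2.52 in H146, and around single TSSs 2.85 and 2.46.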
